A study of Mus musculus with 40 samples.

Results

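Cerebella of DKO mice on a ketogenic diet (DKO KD) were set against cerebella of WT mice on the same diet (WT KD). The comparison rested on 9 of the 40 libraries of the series: 5 DKO KD libraries, numbered 2, 3, 23, 24 and 47, and 4 WT KD libraries, numbered 7, 12, 25 and 28, all chosen by their labels. All mice were C57BL6 males, and total RNA of the cerebellum was depleted of ribosomal RNA and sequenced. The 4 genotypes of the series are labelled DKO, CSB, INDY and WT. INDY is another name of Slc13a5 and CSB of Ercc6, and DKO is taken here as the combination of both mutations, because the labels do not spell it out or name the alleles. Ages, the length of the diet and the makeup of the food are not in the labels. The comparison is given with and without WT KD 25, a WT-labelled library that lay with the DKO libraries for several genes described below. The label of WT KD 25 may be wrong, which the files do not settle, so it is written as WT KD 25 by its label only.

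SLC13A5 carries citrate into cells together with sodium, and is named after the fly gene Indy, whose loss was studied in ageing. Ercc6 encodes CSB, a chromatin-remodelling ATPase that acts where RNA polymerase II stalls at damaged DNA and starts transcription-coupled repair. Loss of CSB in people causes Cockayne syndrome, a disorder that includes degeneration of the cerebellum. A ketogenic diet raises circulating ketone bodies, which brain cells take up through monocarboxylate carriers and oxidise in mitochondria. Microglia, the resident macrophages of the brain, pass from a homeostatic state marked by P2ry12 and Tmem119 to an activated, lysosome-rich state marked by Cst7, Itgax, Clec7a and Gpnmb.

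Values are estimated read counts normalised by the authors, so the depth of a library is unknown. The values of a library summed to 25828074 to 29471933 in DKO KD and to 25254432 to 28912542 in WT KD. Mitochondrial genes held 9.05% to 11.9% of the sum in DKO KD and 7.66% to 10.7% in WT KD. The level of a list is the mean of log2(value + 1) over its tested genes. Purkinje cell genes stood at 11.52 to 11.75 in DKO KD and 10.94 to 11.92 in WT KD, and granule cell genes at 11.56 to 11.76 in DKO KD and 10.96 to 11.92 in WT KD, so the markers of cerebellar neurons were present throughout. Forebrain genes, which should be scarce in cerebellum, stood at 6.01 to 8.24 in DKO KD and 6.07 to 8.32 in WT KD. The highest values were in DKO KD 47 and in WT KD 7, 12 and 25, and DKO KD 2 had 6.89. Neutrophil and muscle genes were high in WT KD 7 and 12.

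Slc13a5, the gene of the INDY mutation, was at or near 0 in all DKO KD libraries. Slc13a5 (ENSMUSG00000020805.14; GRCm38 chromosome 11, 72241989 to 72267222) was listed at 0 in DKO KD 2, 3, 23 and 24 and at 0.934 in DKO KD 47, against 82.1, 160.0, 114.2 and 95.1 in WT KD 7, 12, 25 and 28. No DKO library came near a WT library, and limma's moderated test over all genes gave an adjusted p of 5.54e-22 (3.60e-20 without WT KD 25). No fold is given for a group listed at 0.

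Ercc6, the gene of the CSB mutation, was still read in every DKO KD library. Ercc6 (ENSMUSG00000054051.7; chromosome 14, 32513521 to 32580990) had 600, 639, 876, 470 and 639 in DKO KD 2, 3, 23, 24 and 47, against 878, 766, 633 and 899 in WT KD 7, 12, 25 and 28. DKO KD 23 lay inside the WT range and WT KD 25 lay among the DKO libraries, so the groups overlapped. The means were 645 ± 147 in DKO KD (SD, n = 5) and 794 ± 122 in WT KD (SD, n = 4), and a two-sided exact permutation test over libraries gave p = 0.159, where the smallest possible is 0.0159. Without WT KD 25 the WT mean was 848 ± 71.4 (SD, n = 3) and the exact permutation p was 0.0714, where the smallest possible is 0.0357. In the fit across all genes the log2 difference was -0.32 (SE 0.15, adjusted p = 0.776) and -0.42 without WT KD 25 (SE 0.16, adjusted p = 0.711), and neither passed.

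**Figure D1:**
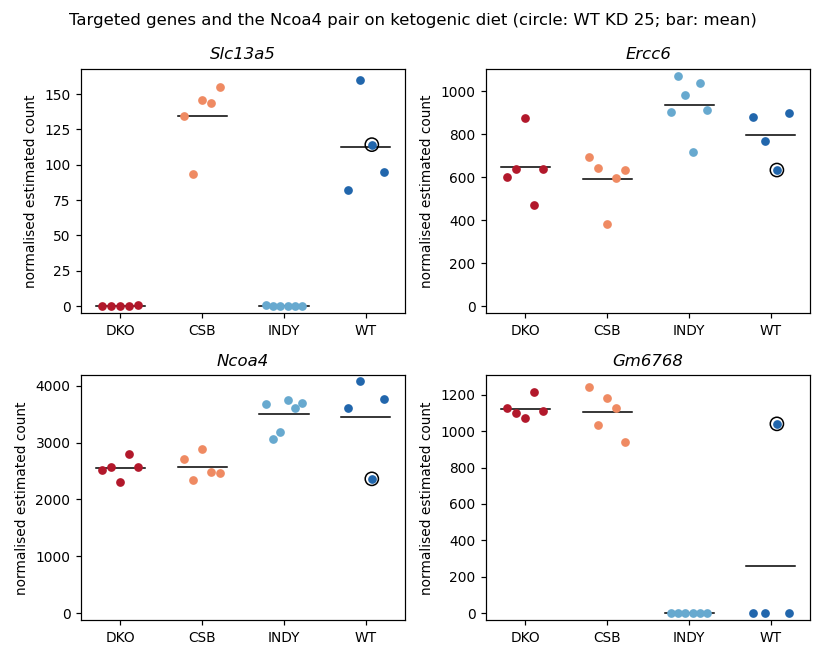
Normalised estimated counts of Slc13a5, Ercc6, Ncoa4 and Gm6768 (linear axes) in each KD library of the DKO, CSB, INDY and WT genotypes; bars are means and the circle marks WT KD 25. Slc13a5 was 0 to 0.934 in DKO KD against 82.1 to 160.0 in WT KD, and WT KD 25 lay with DKO and CSB for Ncoa4 and Gm6768.

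Gm6768 was the only gene past the threshold in the higher direction when all 4 WT KD libraries were used. Gm6768 (chromosome 12, 119260978 to 119262855) is annotated as a processed pseudogene and is a copy of the coding sequence of Ncoa4, the receptor that delivers ferritin to lysosomes and so releases its iron. Their annotated sequences match in 1876 of 1878 aligned bases without a gap. The bases that differ, both in the coding sequence of Ncoa4, are shown because a read from within the copied stretch that covers neither of them fits both genes. Positions are counted from 1 at the first base of Gm6768, the Ncoa4 base is written first, and the capital marks the base that differs (GENCODE M21 transcripts, each in its own sense strand).
Ncoa4 at A1312G: gtgagaaggaagccAtgtataaatggctt
Gm6768 at A1312G: gtgagaaggaagccGtgtataaatggctt
Ncoa4 at G1533A: tcagagtggcttatGgggcctacgtgcaa
Gm6768 at G1533A: tcagagtggcttatAgggcctacgtgcaa

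Gm6768 had 1126, 1100, 1074, 1217 and 1110 in DKO KD 2, 3, 23, 24 and 47, against 0, 0, 1041 and 0 in WT KD 7, 12, 25 and 28. All DKO libraries and WT KD 25 stood close together, and the other 3 WT KD libraries were listed at 0. The limma test gave an adjusted p of 5.79e-05, and 6.32e-37 without WT KD 25. Ncoa4 (chromosome 14, 32159865 to 32179855) had 2517, 2579, 2312, 2798 and 2571 in the DKO KD libraries in the same order, against 3603, 4093, 2362 and 3769 in the WT KD libraries. WT KD 25 was again within the DKO range, and without it the groups did not overlap, as was so for 1.81% of all tested genes in this direction. The log2 difference of Ncoa4 was -0.41 (SE 0.10, adjusted p = 0.324) with all libraries, and Ncoa4 fell by 0.58 without WT KD 25 (SE 0.09, adjusted p = 0.000698).

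The sum of Ncoa4 and Gm6768 did not separate the genotypes. It averaged 3681 ± 224 in DKO KD (SD, n = 5) and 3717 ± 292 in WT KD (SD, n = 4), a log2 difference of -0.01 with an exact permutation p of 0.794. Without WT KD 25 the WT mean was 3822 ± 249 (SD, n = 3) and the exact permutation p was 0.429. Adjusted over the 6 exact tests made, no p fell below 0.0952. The value of either gene alone is therefore uncertain. Of the other iron genes, the ferritin subunits Fth1 and Ftl1 differed by 0.28 (SE 0.23, adjusted p = 0.813) and 0.27 (SE 0.10, adjusted p = 0.747), and the iron exporter Slc40a1 by -0.41 (SE 0.17, adjusted p = 0.776).

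Across the 21367 genes tested, 2 passed an adjusted p of 0.05 with all 9 libraries, Gm6768 higher and Slc13a5 lower in DKO (0.00936%). This is 0.00468% of the genes in each direction, and 662 genes (3.1%) were higher and 704 (3.29%) lower at an unadjusted p under 0.05. The median log2 difference of all genes was 0.01. All DKO KD libraries lay above all 4 WT KD libraries for 281 genes (1.32%) and below them for 192 (0.899%). Without WT KD 25, 24 genes passed, 12 higher and 12 lower (0.112%), or 0.0562% in each direction. At an unadjusted p under 0.05 there were then 538 (2.52%) higher and 659 (3.08%) lower. In 22 of the 24 genes WT KD 25 lay nearer the DKO KD mean than the mean of the other WT libraries. The exceptions were Slc13a5 and Catspere1. This is 91.7% against 48.2% of all tested genes, which is no matched background. The 24 genes were chosen on the other WT KD libraries, and a library left out of such a choice tends to lie nearer DKO. The same share was not taken for another WT library. Leaving out 1 further library gave 5 genes (without WT KD 12) to 123 (without WT KD 28), and a fit of only both groups gave 5. The labels do not say that libraries came from separate animals, so p-values measure the spread between these libraries. Log2 differences are of log2(value + 1), which understates changes of genes with low values.

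**Figure D2:**
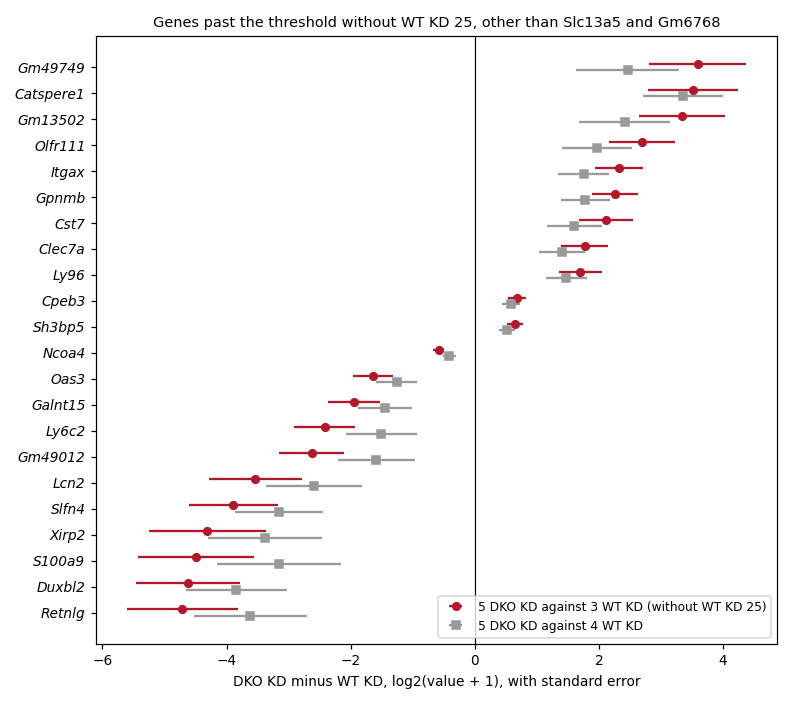
Log2 differences, DKO KD minus WT KD, with standard errors, of the 22 genes other than Slc13a5 and Gm6768 that passed without WT KD 25 (circles); squares give the same genes with all 4 WT KD libraries. Most differences were nearer 0 with WT KD 25 included, as for Itgax, 2.32 without it and 1.75 with it.

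Some genes of activated microglia rose in DKO without WT KD 25. Of the 32 listed genes, all of them tested, 4 passed without WT KD 25 (background 0.0562%) and 0 with it (background 0.00468%). At an unadjusted p under 0.05 limma found 18 higher and 0 lower without WT KD 25 (background 2.52% higher), and 19 higher and 0 lower with it (background 3.1%). The list's median log2 difference was 0.49 without WT KD 25 and 0.39 with it, with 31 and 30 of 32 above 0 (51.5% and 52.1% of all genes). In all DKO KD libraries 16 of the 32 genes lay above the 3 other WT KD libraries (background 2.57%), and 3 lay above all 4 (background 1.32%). The list was chosen with earlier results of these data known and is no independent evidence of its direction.

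Gpnmb, a lysosomal glycoprotein of lipid-laden phagocytes, had 226, 328, 429, 483 and 263 in DKO KD 2, 3, 23, 24 and 47, against 64.3, 80.9, 261.2 and 61.6 in WT KD 7, 12, 25 and 28. WT KD 25 lay inside the DKO range and the other WT libraries far below it. Gpnmb rose by 2.26 without WT KD 25 (SE 0.37, adjusted p = 0.00295; 4.80-fold), and differed by 1.78 with it (SE 0.39, adjusted p = 0.147).

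Itgax, the integrin CD11c, had 74.9, 94.5, 176.4, 186.4 and 77.2 in the DKO KD libraries, against 20.8, 30.6, 109.5 and 16.0 in the WT KD libraries. The 3 other WT libraries lay below all DKO libraries and WT KD 25 above 3 of them. Itgax rose by 2.32 without WT KD 25 (SE 0.38, adjusted p = 0.00295), against 1.75 with it (SE 0.41, adjusted p = 0.240).

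Cst7, an inhibitor of lysosomal cathepsins, had 37.1, 49.6, 75.2, 79.7 and 46.5 in DKO KD, against 8.08, 18.5, 52.8 and 11.6 in WT KD. The pattern over libraries was that of Itgax. Cst7 rose by 2.11 without WT KD 25 (SE 0.44, adjusted p = 0.0384), and differed by 1.60 with it (SE 0.44, adjusted p = 0.457).

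Clec7a, the beta-glucan receptor dectin-1, had 170.8, 252.7, 241.6, 283.4 and 150.3 in DKO KD, against 64.8, 100.8, 168.7 and 36.2 in WT KD. It is annotated in GENCODE as a polymorphic pseudogene. WT KD 25 was again within the DKO range. Clec7a rose by 1.77 without WT KD 25 (SE 0.38, adjusted p = 0.0453) and differed by 1.41 with it (SE 0.37, adjusted p = 0.355).

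Among the genes of the same state that did not pass in either setting, the lipid receptor Trem2 had 288, 317, 322, 373 and 292 in DKO KD against 138, 131, 327 and 217 in WT KD. Its difference was 1.00 without WT KD 25 (adjusted p = 0.0878) and 0.74 with it (adjusted p = 0.651). Tyrobp, the adaptor through which Trem2 signals, differed by 0.67 without WT KD 25 (adjusted p = 0.742), and the lysosomal protein Cd68 by 0.83 (adjusted p = 0.211). Both had their DKO libraries above the 3 other WT libraries and WT KD 25 among the DKO libraries.

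**Figure D3:**
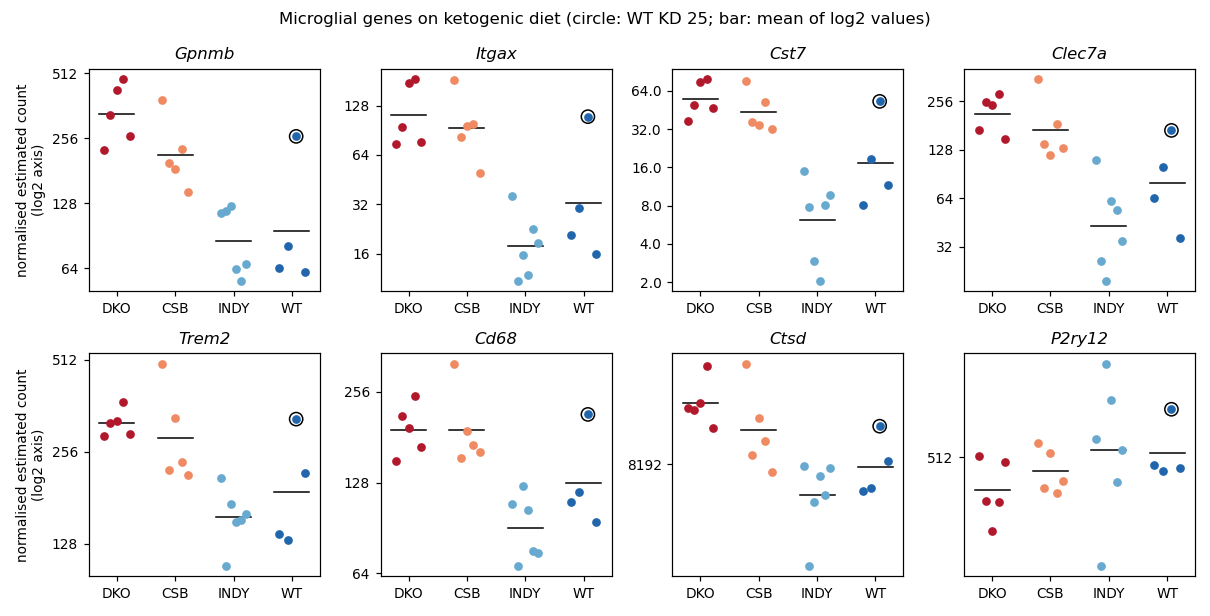
Normalised estimated counts (log2 axes) of 8 microglial genes in each KD library by genotype; bars are means of the log2 values and the circle marks WT KD 25. For Gpnmb, Itgax, Cst7 and Clec7a the DKO KD libraries lay above the WT KD libraries other than WT KD 25, and for P2ry12 (360 to 515 in DKO KD, 479 to 644 in WT KD) they did not.

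The level of the whole activated list was 8.70, 8.79, 9.03, 9.19 and 8.71 in DKO KD 2, 3, 23, 24 and 47, against 8.17, 8.40, 8.82 and 8.03 in WT KD 7, 12, 25 and 28. It averaged 8.71 ± 0.28 in CSB KD (SD, n = 5) and 7.97 ± 0.33 in INDY KD (SD, n = 6). In whole tissue, more cells of a type and more RNA per cell cannot be told apart. The number of the 4 calls that passed depended on the libraries: it was 2 to 4 when 1 further library was left out, 1 in a fit of only both groups, and 0 when WT KD 7 and 12 were left out too, which leaves WT KD 28 as the only WT library. In that last setting the list's median was 0.70, with 28 of 32 above 0.

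The stretches before the annotated starts of the 4 genes that passed are shown because these genes passed together. They are RefSeq promoters on GRCm38.p6, read 5′ to 3′ on the gene's strand; the first of 2 entries was taken for Clec7a. Capitals mark GAGGAA or its reverse complement TTCCTC, the core of the PU-box bound by the macrophage factor PU.1. Searched on both strands, it is present in 1 of these 4 windows, that of Clec7a, and in 23.3% of all 32851 promoters of this length. CACGTG, an E-box, is in none of the 4 and in 6.02% of all.
Itgax promoter (chr7:128129300-128129549, + strand): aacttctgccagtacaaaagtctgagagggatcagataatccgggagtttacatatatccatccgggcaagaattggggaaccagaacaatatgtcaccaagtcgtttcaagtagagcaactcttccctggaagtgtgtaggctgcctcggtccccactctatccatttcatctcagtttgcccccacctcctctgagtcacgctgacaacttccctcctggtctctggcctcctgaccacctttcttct
Gpnmb promoter (chr6:49036268-49036517, + strand): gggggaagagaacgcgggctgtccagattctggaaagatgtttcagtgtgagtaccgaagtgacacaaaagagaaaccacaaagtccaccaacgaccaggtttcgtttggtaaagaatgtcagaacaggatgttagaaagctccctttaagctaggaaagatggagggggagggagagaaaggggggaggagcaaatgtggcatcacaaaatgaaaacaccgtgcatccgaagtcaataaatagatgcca
Cst7 promoter (chr2:150570165-150570414, + strand): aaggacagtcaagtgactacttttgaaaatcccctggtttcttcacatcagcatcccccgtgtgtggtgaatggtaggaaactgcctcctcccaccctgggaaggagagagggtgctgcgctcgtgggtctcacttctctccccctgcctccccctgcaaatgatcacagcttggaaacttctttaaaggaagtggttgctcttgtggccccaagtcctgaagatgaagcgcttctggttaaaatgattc
Clec7a promoter (chr6:129472780-129473029, - strand): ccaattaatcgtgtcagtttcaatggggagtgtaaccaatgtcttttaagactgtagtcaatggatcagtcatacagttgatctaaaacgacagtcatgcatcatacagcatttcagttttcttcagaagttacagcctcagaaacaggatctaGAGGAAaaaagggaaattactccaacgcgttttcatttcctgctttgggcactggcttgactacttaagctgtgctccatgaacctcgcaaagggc

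No homeostatic microglial gene passed. None of the 20 genes passed in limma in either setting, with 0 at an unadjusted p under 0.05 with all libraries and 1 higher without WT KD 25, and the list's median was -0.03 with all libraries and 0.08 without WT KD 25. P2ry12, the ADP receptor of resting microglia, differed by -0.26 (SE 0.21), Tmem119 by -0.32 (SE 0.20) and the fractalkine receptor Cx3cr1 by 0.11 (SE 0.21). The integrin Itgam differed by -0.33 (SE 0.22) and the leukocyte phosphatase Ptprc by -0.43 (SE 0.27). Itgam and Ptprc were highest in WT KD 12, at 782 and 733, the library with the highest level of neutrophil genes (9.57), and without WT KD 7 and 12 Ptprc differed by 0.29 and Itgam by -0.09.

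No complement gene passed. Of 18 genes 13 were above 0 with all libraries and 11 without WT KD 25, against 52.1% and 51.5% of all genes, and 0 passed in limma in either setting. At an unadjusted p under 0.05, 3 were higher with all libraries (background 3.1%) and 5 without WT KD 25 (background 2.52%). The median was 0.26 with all libraries and 0.22 without WT KD 25, but -0.03 (9 of 18 above 0) with the choroid plexus level as covariate and all libraries. Without WT KD 28 it was 0.05, and -0.26 (8 of 18 above 0) without WT KD 25 and 28. C1qa, C1qb and C1qc, the chains that recognise tagged synapses and debris, differed by 0.58, 0.58 and 0.61 without WT KD 25 (adjusted p = 0.615, 0.684 and 0.615). The C3a receptor C3ar1 had 75.8, 77.8, 109.5, 93.6 and 69.8 in DKO KD against 60.7, 59.7, 78.5 and 38.4 in WT KD, a difference of 0.69 without WT KD 25 (adjusted p = 0.382). Its groups overlapped only through WT KD 25.

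Lysosomal genes were slightly higher in most cases. Of 26 genes 24 had differences above 0 in both settings, against 52.1% of all genes with all libraries and 51.5% without WT KD 25. At an unadjusted p under 0.05, 7 were higher in each setting (background 3.1% with all libraries and 2.52% without WT KD 25), and 0 passed. The median was 0.17 with all libraries and 0.19 without WT KD 25. Ctsd, the main aspartic protease of lysosomes, had 10620, 10540, 10880, 12910 and 9681 in DKO KD, against 7234, 7346, 9774 and 8308 in WT KD. Only DKO KD 47 and WT KD 25 crossed. Ctsd differed by 0.51 without WT KD 25 (SE 0.14, adjusted p = 0.258), and the cathepsins Ctsz and Ctsh by 0.51 (adjusted p = 0.222) and 0.66 (adjusted p = 0.400). The membrane proteins Lamp1 and Lamp2 differed by 0.19 and 0.18 and the protective protein Ctsa by 0.15, none of them passing.

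The listed genes of antigen presentation and interferon response also lay mostly above 0 without a call. Of all tested genes, 52.1% lay above 0 with all libraries and 51.5% without WT KD 25. Of 16 genes of MHC class I and the immunoproteasome 13 were above 0 in both settings, with medians of 0.26 with all libraries and 0.23 without WT KD 25. In limma 3 and 2 were higher at an unadjusted p under 0.05 (background 3.1% and 2.52%). B2m, the light chain shared by class I molecules, had 2170, 2070, 1954, 2548 and 2246 in DKO KD, against 1579, 1466, 1819 and 1571 in WT KD. All DKO libraries lay above all WT libraries, WT KD 25 included, and the difference was 0.45 (SE 0.15, adjusted p = 0.651). The heavy chains H2-K1 and H2-D1, whose similar sequences make each value uncertain, differed by 0.39 (adjusted p = 0.747) and 0.44 (adjusted p = 0.776). Of 26 interferon-stimulated genes 21 were above 0 with all libraries and 22 without WT KD 25, with medians of 0.27 and 0.23. At an unadjusted p under 0.05, 2 and 1 were higher (background 3.1% and 2.52%). Ifit3 had 568, 905, 705, 699 and 580 in DKO KD against 448, 504, 305 and 315 in WT KD, without overlap, and differed by 0.83 (SE 0.34, adjusted p = 0.776). Ifit1 differed by 0.42, Ifit2 by 0.23, the ISG15 protease Usp18 by 0.67 and Lgals3bp by 0.48, and none passed. Oas3, also interferon-induced but outside this list, went the other way. It fell by 1.64 without WT KD 25 (SE 0.32, limma adjusted p = 0.0269) and differed by -1.26 with it (adjusted p = 0.335).

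Reactive astrocyte genes lay mostly above 0, and none passed in the higher direction. Of 20 genes 17 were above 0 with all libraries (median 0.27) and 16 without WT KD 25 (median 0.15), against 52.1% and 51.5% of all genes. At an unadjusted p under 0.05, limma found 6 higher and 1 lower with all libraries (background 3.1% and 3.29%). Without WT KD 25 it found 4 higher and 1 lower (background 2.52% and 3.08%). Gfap, the intermediate filament of astrocytes, had 4747, 7232, 7335, 11150 and 4794 in DKO KD, against 4019, 3019, 5222 and 1863 in WT KD. The groups overlapped through WT KD 25 alone, and Gfap differed by 1.24 without it (SE 0.40, adjusted p = 0.489) and 1.02 with it (SE 0.37, adjusted p = 0.747). The protease inhibitor Serpina3n differed by 1.41 without WT KD 25 (SE 0.55, adjusted p = 0.765) and the filament Vim by 0.46 (adjusted p = 0.853). Lcn2 was the 1 gene of this list that passed, and in the lower direction; it belongs with the neutrophil genes described next.

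Several neutrophil and marrow genes fell in DKO without WT KD 25, and they were high in 2 of the WT libraries, WT KD 7 and 12. S100a9, an antimicrobial protein of neutrophils, had 9.19, 15.0, 15.1, 56.8 and 13.6 in DKO KD, against 870.0 and 3935 in WT KD 7 and 12 and 9.36 and 20.1 in WT KD 25 and 28. Retnlg, a resistin-like protein of neutrophils, was listed at 0 in DKO KD 2, 3 and 47 and had 2.17 and 2.70 in DKO KD 23 and 24, against 93.0, 270.1, 1.05 and 2.10 in WT KD 7, 12, 25 and 28. Lcn2, a siderophore-binding protein, had 7.62 to 20.2 in DKO KD, against 182.0, 883.9, 10.5 and 24.1 in WT KD. The differences rested on WT KD 7 and 12 in each case.

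Without WT KD 25, S100a9 fell by 4.49 (SE 0.94, adjusted p = 0.0396), Retnlg by 4.71 (SE 0.89, adjusted p = 0.0168) and Lcn2 by 3.54 (SE 0.75, adjusted p = 0.0430). With all libraries none of these passed. Slfn4, a Schlafen protein of myeloid cells, fell by 3.89 (SE 0.72, adjusted p = 0.0144), and the monocyte antigen Ly6c2, whose close copy Ly6c1 makes its value uncertain, fell by 2.42 (SE 0.49, adjusted p = 0.0317). S100a8 and Ngp, both granulocyte proteins, differed by -4.83 (adjusted p = 0.0855) and -5.02 (adjusted p = 0.376). Of 18 neutrophil and marrow genes, listed after their values were seen, 12 were tested and 3 passed lower without WT KD 25 (background 0.0562%).

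The level of the 12 neutrophil genes was 1.76 to 3.78 in DKO KD, against 7.53 and 9.57 in WT KD 7 and 12 and 2.02 and 1.91 in WT KD 25 and 28. Against WT KD 25 and 28 alone, none of these genes passed. S100a9 differed by 0.33 and Ly6c2 by 0.37, in the opposite direction. Slfn4 differed by -0.84, Retnlg by -0.63, Lcn2 by -0.31, Xirp2 by -1.36 and Oas3 by -0.58, in the same direction. With WT KD 25 left out too, which leaves WT KD 28 as the only WT library, S100a9 and Ly6c2 differed by -0.19 and -0.48. The sign of these genes thus changed with WT KD 25. Slfn4 was then -0.71, Retnlg -0.92, Lcn2 -0.87, Xirp2 -2.14 and Oas3 -1.03. Muscle genes followed the same libraries: their level was 3.72 to 4.48 in DKO KD, against 6.86, 6.00, 3.93 and 3.35 in WT KD 7, 12, 25 and 28. Xirp2, an actin-binding protein of striated muscle, was 0 to 3.42 in DKO KD, against 104.4, 90.3, 2.45 and 9.23 in WT KD. Xirp2 fell by 4.31 without WT KD 25 (SE 0.94, adjusted p = 0.0484). Oas3, an interferon-induced oligoadenylate synthetase, had 8.40 to 18.7 in DKO KD against 32.9, 89.0, 14.6 and 28.3 in WT KD, and fell by 1.64 without WT KD 25 (SE 0.32, adjusted p = 0.0269).

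**Figure D4:**
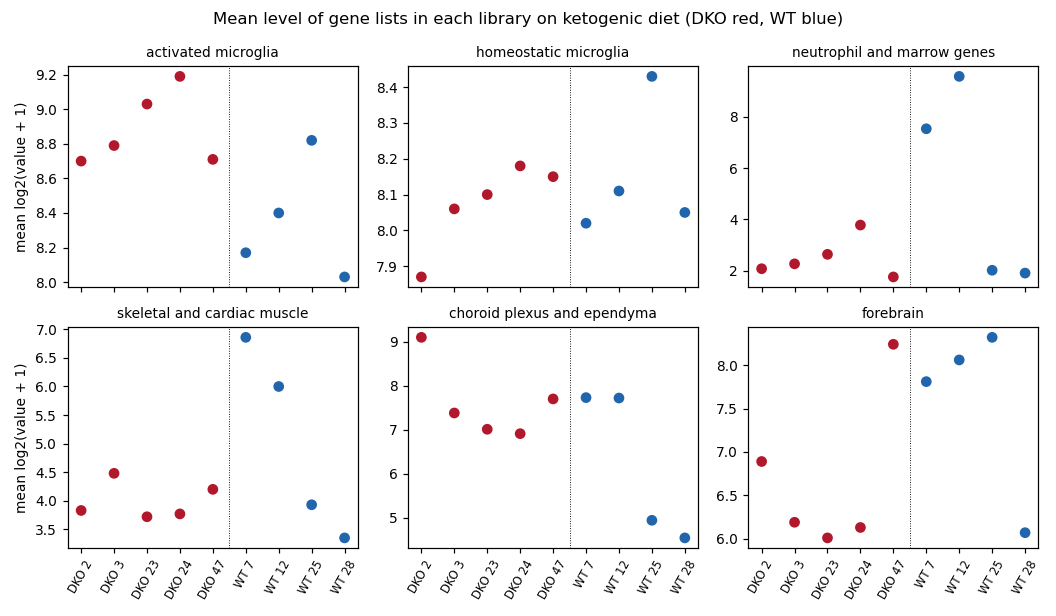
Mean log2(value + 1) of 6 gene lists in each DKO KD library (left of the dotted line) and each WT KD library (right). Neutrophil and muscle genes were high in WT KD 7 and 12 alone, choroid plexus genes were low in WT KD 25 and 28 (4.94 and 4.54), and the activated microglia level of WT KD 25 (8.82) lay within that of the DKO KD libraries.

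Choroid plexus genes moved with the library as well. Their level was 9.10, 7.38, 7.01, 6.91 and 7.70 in DKO KD 2, 3, 23, 24 and 47, against 7.73, 7.72, 4.94 and 4.54 in WT KD 7, 12, 25 and 28. Of 21 genes 8 were higher in DKO at an unadjusted p under 0.05 with all libraries (background 3.1%), 1 without WT KD 25 (background 2.52%), and 0 passed in limma. Mia, a secreted protein that is not in the list, was likewise low in the WT libraries with low choroid plexus levels: it had 61.7, 26.98, 23.8, 25.6 and 25.4 in DKO KD, against 18.7, 14.5, 3.20 and 2.15 in WT KD (log2 difference 1.98, SE 0.42, adjusted p = 0.147). The part of the choroid plexus in this value was not tested. Lists of other tissues also had medians above that of activated microglia: liver genes 1.37 with all libraries and 1.51 without WT KD 25, and brainstem genes 0.61 and 0.69, with 0 genes passing in limma and 1 liver gene higher at an unadjusted p under 0.05 with all libraries.

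Of the 24 genes that passed without WT KD 25, 5 lie on chromosome 14, which holds 3.77% of the tested genes and carries Ercc6: Ncoa4, Galnt15, Sh3bp5, Duxbl2 and Gm49012. Galnt15, an enzyme that starts O-glycan chains (chromosome 14, 32028989 to 32062197), had 189, 207, 213, 416 and 139 in DKO KD, against 1006, 1043, 208 and 564 in WT KD. WT KD 25 lay with DKO. Galnt15 fell by 1.95 without it (SE 0.42, adjusted p = 0.0478). Sh3bp5, an activator of Rab11 (chromosome 14, 31359880 to 31436078), had 1173, 1509, 1222, 1660 and 1373 in DKO KD, against 940, 921, 1260 and 786 in WT KD, and rose by 0.65 without WT KD 25 (SE 0.13, adjusted p = 0.0384).

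Duxbl2 (chromosome 14, 26118349 to 26129763), one of a family of near-identical homeobox copies whose values are uncertain, was listed at 0 in 4 of the DKO KD libraries and at 9.08 in DKO KD 23, against 38.8, 31.9, 3.50 and 44.2 in WT KD (adjusted p = 0.0117 without WT KD 25). Gm49012 is an antisense transcript (chromosome 14, 34591092 to 34605700) that overlaps Opn4, the gene of melanopsin (34590618 to 34600142), and without a stated strand setting reads of the 2 cannot be told apart. Gm49012 fell by 2.63 without WT KD 25 (SE 0.52, adjusted p = 0.0269), while Opn4 had 37.4, 22.7, 40.5, 36.2 and 22.1 in DKO KD against 3.33, 3.25, 21.7 and 8.98 in WT KD, without overlap. Opn4 differed by 2.48 without WT KD 25 (SE 0.58, adjusted p = 0.0884) and by 1.98 with it (SE 0.56, adjusted p = 0.483). Ldb3 (34526603 to 34588682), a Z-disc protein, had 55.3 to 87.2 in DKO KD against 172.2, 142.0, 56.9 and 203.8 in WT KD. It missed the threshold at a limma adjusted p of 0.0522 without WT KD 25 and 0.747 with it. For each of these genes other than Opn4, WT KD 25 lay within or beyond the DKO range on the far side from the other WT libraries. In the CSB KD libraries Gm6768 was 940.5 to 1245, Ncoa4 2350 to 2883, Galnt15 146.1 to 268.4, Duxbl2 0 to 5.23 and Slc13a5 93.2 to 155.3. WT KD 25, with 1041, 2362, 207.8, 3.50 and 114.2, lay inside each of these ranges, and outside the DKO KD range for Gm6768 and Slc13a5. Sh3bp5 went the other way: it was 1299 to 1499 in CSB KD and 1173 to 1660 in DKO KD. WT KD 25, with 1260, lay below its CSB KD range and inside its DKO KD range.

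Catspere1, annotated as an unprocessed pseudogene of a sperm calcium channel subunit (chromosome 1, 177808550 to 177962233), had 355, 7.52, 252, 295 and 298 in DKO KD 2, 3, 23, 24 and 47, against 9.06, 8.81, 19.0 and 20.4 in WT KD. DKO KD 3 lay below all WT libraries and the other DKO libraries far above them. Catspere1 rose by 3.51 without WT KD 25 (SE 0.72, adjusted p = 0.0317) and differed by 3.35 with it (SE 0.65, adjusted p = 0.0664). Its neighbour Catspere2 had 860, 301, 654, 740 and 797 in DKO KD against 307, 320, 451 and 301 in WT KD, and Ifi202b, an interferon-induced gene of the same chromosome with close copies, had 21.6, 0, 27.7, 22.3 and 17.1 against 1.01, 0.98, 4.23 and 0. DKO KD 3 was the exception for both. Neither gene passed (adjusted p = 0.206 and 0.0742 without WT KD 25).

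The remaining genes that passed without WT KD 25 were Cpeb3, Ly96, Olfr111, Gm13502 and Gm49749. Cpeb3, which represses the translation of bound mRNAs in neurons, had 2007, 1926, 1955, 2031 and 1439 in DKO KD, against 916, 1153, 1524 and 1460 in WT KD, and rose by 0.68 (SE 0.14, adjusted p = 0.0396). DKO KD 47 lay within the WT range. Ly96, the partner of Toll-like receptor 4, was low throughout but without overlap, with 14.8 to 19.6 in DKO KD against 3.12 to 9.67 in WT KD, and rose by 1.70 (SE 0.34, adjusted p = 0.0317). The olfactory receptor Olfr111 rose by 2.69 (SE 0.53, adjusted p = 0.0269). The processed pseudogene Gm13502 and the non-coding Gm49749 had their highest values of all 9 libraries in WT KD 25 (121.1 and 49.7). Duxbl2, Gm49012, Ly96, Olfr111, Gm13502 and Gm49749 fell outside the rule for named genes and were chosen after their values were seen.

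Some further genes had the smallest unadjusted p with all 9 libraries and did not pass in either setting. Sox9, a transcription factor of astrocytes and Bergmann glia, had 355, 293, 377, 363 and 327 in DKO KD, against 206, 231, 259 and 93.9 in WT KD, without overlap (log2 difference 0.88, SE 0.22, adjusted p = 0.324). Nvl, an ATPase of ribosome assembly, had 980, 1578, 1278, 1032 and 1099 in DKO KD, against 1664 to 1669 in WT KD. It lies on chromosome 1 (181087138 to 181144204), as do Catspere1 and Catspere2. The DKO library nearest WT was DKO KD 3, the exception for those genes as well. Taf1b, a subunit of the RNA polymerase I factor SL1, had 306 to 374 in DKO KD against 388 to 559 in WT KD. Nvl and Taf1b were both lower in all DKO libraries than in all WT libraries, with differences of -0.50 (SE 0.13, adjusted p = 0.322) and -0.44 (SE 0.11, adjusted p = 0.324). Genes with all DKO libraries below all WT libraries made up 0.899% of those tested, and those with all DKO above all WT, as Sox9, 1.32%.

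Bag3, a co-chaperone of Hsp70, differed by 0.92 (adjusted p = 0.322), Hpgd, which degrades prostaglandins, by 0.73 (adjusted p = 0.284), Trappc6a, of the TRAPP vesicle-tethering complex, by 0.64 (adjusted p = 0.204) and Magix by 1.54 (adjusted p = 0.147). Of these, Hpgd, Trappc6a and Magix had all DKO libraries above all WT libraries, as did 1.32% of all tested genes, and Bag3 did not. These genes were picked by a small p in the same libraries, which favours such separation. The cell-cycle factor E2f2 and the kinetochore protein Knl1 differed by -1.97 (adjusted p = 0.312) and -1.51 (adjusted p = 0.335). Both were high in WT KD 7, 12 and 25 and at the DKO level in WT KD 28. Mylk4, a myosin light chain kinase, had 7.90 to 17.4 in DKO KD against 23.8 to 72.1 in WT KD (log2 difference -1.39, adjusted p = 0.335).

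Metabolic genes of the pathways that the mutation and the diet touch showed few differences. Of 21 tested genes of citrate transport and use, Slc13a5 alone passed. The mitochondrial citrate carrier Slc25a1 differed by 0.28 (SE 0.20), the dicarboxylate carrier Slc13a3 by -0.08 (SE 0.18), the malic enzyme Me1 by 0.22 (SE 0.16) and the carbohydrate-responsive factor Mlxipl by -0.41 (SE 0.36). Of 14 genes of ketone body transport and use 0 passed, and 1 was higher at an unadjusted p under 0.05 (background 3.1%). That gene, the monocarboxylate carrier Slc16a1, had 2042, 2280, 2050, 2333 and 2126 in DKO KD against 1815, 1803, 1858 and 1857 in WT KD, without overlap, a difference of 0.24 (SE 0.10, adjusted p = 0.776). The carriers Slc16a7 and Slc16a3 differed by -0.22 and -0.24, and the ketone-oxidising enzymes Oxct1 and Bdh1 by 0.19 and 0.14.

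In 24 genes of transcription-coupled and nucleotide excision repair 0 passed in limma and Ercc6, lower, was the only one at an unadjusted p under 0.05 (background 3.29%). Ercc8, which works with CSB, differed by 0.16 (SE 0.11), Uvssa by -0.11 (SE 0.10), the damage sensor partner Rad23b by -0.12 (SE 0.07) and Polr2a, the large subunit of RNA polymerase II, by 0.29 (SE 0.20). Nuclear-encoded genes of oxidative phosphorylation had a median of 0.12 with all libraries (46 of 50 above 0) and 0.15 without WT KD 25 (50 of 50). Of all tested genes, 52.1% and 51.5% were above 0. None of the 50 passed, and 1 and 2 were higher at an unadjusted p under 0.05 in limma (background 3.1% and 2.52%), near the background. WT KD 28 (11.60) lay among the DKO libraries (11.37 to 11.61) for the level of this list, and WT KD 7 and 12 (11.17 and 11.23) below. Without WT KD 7 and 12 the median was -0.05, with 10 of 50 above 0. The lists of the TCA cycle, glycolysis, fatty acid oxidation, cholesterol synthesis, ribosomal proteins, p53 targets and histone deacetylases had medians between 0.01 and 0.14 with all libraries, and no gene of them passed in either setting.

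**Figure D5:**
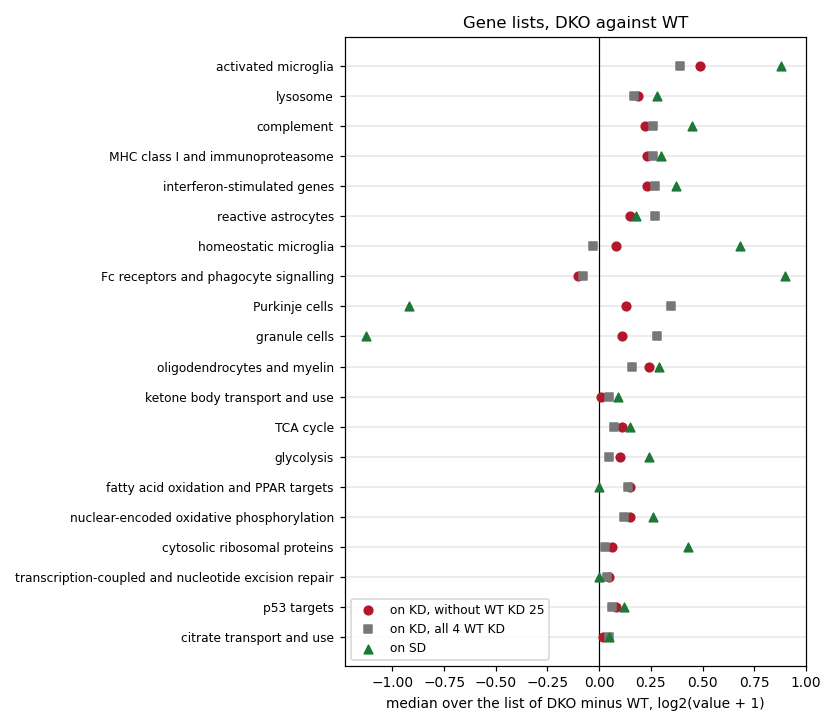
Median over each of 20 gene lists of the log2 difference DKO minus WT, on KD without WT KD 25 (circles), on KD with all 4 WT libraries (squares) and on SD (triangles). Activated microglia had a median of 0.49 on KD without WT KD 25 and 0.39 with it, and the homeostatic list lay near 0 on KD (0.08 and -0.03) and at 0.68 on SD.

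The same genotypes on standard diet (SD), in 4 DKO SD and 4 WT SD libraries that are not part of the KD comparison, gave 1265 genes past the threshold (5.92%). That count was 13 with the forebrain level as covariate and 12 without WT SD 41, the lowest of the counts with 1 library left out, which reached 1826. Of the 24 genes called on KD without WT KD 25, 20 had the same direction on SD. Of these, 11 were at an unadjusted p under 0.05 in limma (45.8% of the 24, against 19.9% of all tested genes) and 9 past the threshold. Of all 21367 tested genes, 782 had the same direction and passed on SD. Without Slc13a5, Gm6768 and Ncoa4, the mutated gene and the copied pair, 8 of 21 had the same direction at an unadjusted p under 0.05 (38.1%). Of the 21, 6 passed on SD as well: Gpnmb, Itgax, Cst7, Clec7a, Galnt15 and Duxbl2. They were not followed in the SD settings with fewer calls. Gpnmb differed by 1.74 on SD (adjusted p = 0.0329) and Cst7 by 2.47 (adjusted p = 0.00989). The neutrophil genes did not pass on SD: S100a9 differed by -0.43 (adjusted p = 0.807) and Lcn2 by 0.36 (adjusted p = 0.786).

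The difference of the genotype effect between the diets was tested as an interaction with all libraries, and limma called 0 genes, with 3988 at an unadjusted p under 0.05 (18.7%) and a smallest adjusted p of 0.111. For homeostatic microglial genes this difference, KD minus SD, had a median of -0.75, with 13 of 20 lower at an unadjusted p under 0.05 (background 10%) and 0 passing. Activated genes had a median of -0.28, with 6 of 32 above 0, 8 lower at an unadjusted p under 0.05 (background 10%) and 0 passing. Itgam differed between the diets by -1.17 and Cd68 by -1.03 (unadjusted p = 0.000679 and 0.00281 in limma), so that both differences were lower on KD. Forebrain genes differed by a median of -2.68 in the same contrast, and their part in these values was not tested. On KD alone, Cd68 differed by 0.58 with all libraries and by 0.83 without WT KD 25. Itgam on KD differed by -0.33 with all libraries and by -0.09 without WT KD 7 and 12. For both genes, the difference between the diets is not given without those libraries.

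Set against the single mutants on KD, with the same DKO KD libraries, DKO differed from CSB in 6 genes and from INDY in 21. The 6 were Slc13a5, Gm7336 and Gm28438 lower and Ifi202b, Catspere1 and Gm12671 higher in DKO (0.014% in each direction). No activated microglia gene was among them, and the list's median was 0.16. Against INDY KD, 18 genes were higher (0.0842%) and 3 lower (0.014%), and 9 of the 32 activated microglia genes were among the higher ones, with a list median of 0.79. Without DKO KD 24 the 21 genes became 8, and a fit of only both groups left 1, so these calls rest on the spread shared over all 8 groups. Itgax averaged 122 ± 55.0 in DKO KD (SD, n = 5), 102 ± 49.4 in CSB KD (SD, n = 5) and 19.4 ± 9.30 in INDY KD (SD, n = 6); it rose by 2.59 over INDY (SE 0.37, adjusted p = 0.000261) and differed by 0.26 from CSB (adjusted p = 1). Cst7 was higher than in INDY by 2.93 (SE 0.40, adjusted p = 0.000141), Clec7a by 2.27 (SE 0.34, adjusted p = 0.000345) and Gpnmb by 1.93 (SE 0.35, adjusted p = 0.00782).

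Trem2, Tyrobp, Cd68 and Ctsd, which did not pass against WT, passed against INDY, with differences of 1.02 (adjusted p = 0.0329), 1.01 (adjusted p = 0.0456), 1.08 (adjusted p = 0.00844) and 0.62 (adjusted p = 0.0175). Whether these contrasts differ from that against WT was not tested, and they share the DKO KD libraries. The test of whether DKO departs from the sum of both single mutants on KD found 0 genes in limma, with 981 at an unadjusted p under 0.05 (4.59%) and a smallest adjusted p of 0.178. For Itgax the departure was 1.10 (SE 0.56), for Cst7 1.67 (SE 0.60) and for Gpnmb 0.78 (SE 0.52). None passed (adjusted p = 1.00, 0.940 and 1.00). These departures were fitted with WT KD 25 included. Without WT KD 25 the difference of DKO from WT was larger: 2.32 against 1.75 for Itgax, 2.11 against 1.60 for Cst7 and 2.26 against 1.78 for Gpnmb. The WT level enters the departure with a plus sign, so the departures would be smaller without WT KD 25. Their size in that setting is not given.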

How the data were processed

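RNA of mouse cerebellum was sequenced by the submitters after ribosomal RNA depletion. The authors deposited 1 table of 54331 genes by 40 libraries, whose values are a signal: estimated read counts scaled per library. Per the submitters' processing notes, Bowtie2, Salmon, DESeq2 and the build mm9 were used, without versions or order, and the strand setting is not given in the sources used here. Raw reads could not be recovered from the values, so no count test was run.

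From the deposited signal, limma 3.58.1 (R 4.3.3) was run on log2(value + 1) for the 21367 genes with a value of 10 or more in 4 or more libraries. All 8 groups of genotype and diet shared 1 fit with a trended, robust spread, and Benjamini-Hochberg adjusted p under 0.05 was the threshold over all genes. Groups were taken from the titles. Gene IDs were matched to GENCODE M21 on GRCm38, 53444 of 54331 with their version and 54097 without it, and all coordinates are of that build. Exact permutation tests used scipy 1.17.1. The script was tested on simulated data.

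The members and gene lists were chosen with earlier results of these data known. Named genes were Slc13a5, Ercc6, Ncoa4 and Gm6768, up to 15 called genes per direction by p with and without WT KD 25, or the 10 with the smallest p where fewer than 10 were called, with a mean of 20 or more and no model name, and in lists described gene by gene the first 3 members and the 3 with the smallest p. A member of the homeostatic list is not reported here by name. Other lists are given by counts, and genes of the other comparisons are named only where they bear on these. Alternatives covered the pseudocount, the filter, the fit, tissue levels as covariates and leaving out libraries.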

Additional observations from a re-analysis of the deposited data

Results flagged for a closer look

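In each KD group, the highest or lowest library of a named gene was set against the range of its group, a rule that chance meets in about 1 in 20 groups; 60 groups were tested and 6 had such a library. Gm6768 had 1041 in WT KD 25, against 0 in the other WT KD libraries. Catspere1 had 7.52 in DKO KD 3, against 252 or more in the other DKO KD libraries. Mia stood at 61.7 in DKO KD 2, and S100a9 at 56.8 in DKO KD 24, each above the rest of DKO KD. Cpeb3 was lowest in DKO KD 47, at 1439. Slc13a5 had 0.934 in DKO KD 47 and was listed at 0 in the other DKO KD libraries.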

How the results depend on the processing

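The count of genes for DKO against WT on KD was 2 and became 4 with a pseudocount of 5, 8 with no filter, 4 with the forebrain level and 13 with the choroid plexus level as covariate. It was 21 without the libraries of high forebrain level, 8 without WT KD 7 and 12, 11 with the neutrophil level as covariate, and 2 to 24 leaving out 1 library (24 without WT KD 25, 15 without WT KD 28, 8 without DKO KD 3). Without WT KD 25 it was 24, and became 37 with a pseudocount of 5, 83 with no filter, 5 with a filter within the groups compared, 5 in a fit of those groups alone, 46 with the choroid plexus level, 12 without WT KD 7 and 12, 10 with the neutrophil level, and 5 to 123 leaving out 1 further library (123 without WT KD 28, 5 without WT KD 12, 6 without WT KD 7, 8 without DKO KD 2, 11 without DKO KD 23 or DKO KD 24, 14 without DKO KD 47). Settings that left WT KD 28 as the only WT KD library assume that it varies like the other groups. Among them is the setting without libraries of high forebrain level, whose limit was 6.5. It also left out DKO KD 2, so that 3 DKO KD libraries and 1 WT KD library remained. DKO against WT on SD was 1265, and 69 with no filter, 686 in a fit of those groups alone, 13 with the forebrain level, 309 without libraries of high forebrain level, and 12 to 1826 leaving out 1 library. The difference between the diets was 0, and 1 with the choroid plexus level, 10 without high forebrain libraries and 0 to 617 leaving out 1 library (617 without DKO SD 36). DKO against CSB was 6, and 3 with a pseudocount of 0.5, 3 with no filter, 2 without high forebrain libraries and 1 to 6 leaving out 1 library. DKO against INDY was 21, and 1 in a fit of those groups alone and 8 to 31 leaving out 1 library (8 without DKO KD 24). The departure from additivity was 0, and 1 with a pseudocount of 5, 1 with no filter, 1 with no trend, 8 without high forebrain libraries and 0 to 3 leaving out 1 library.

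For single genes, 2444 of 2728 alternative values kept direction and call and 33 changed sign. Without WT KD 7 and 12, from all libraries, Ly6c2 was 0.37, S100a9 0.33, Cx3cr1 -0.14, Ngp 1.75, Ptprc 0.29, S100a8 0.60, Slc13a3 0.15 and Slc25a1 -0.0461; from those without WT KD 25, Knl1 was 0.45, Itgam 0.0407, Ngp 1.75, Ptprc 0.64, S100a8 0.19, Slc13a3 0.33, Slc16a3 0.31, Slc16a7 0.13, Slc25a1 -0.18 and Slc40a1 0.15. With the neutrophil level as covariate, Cx3cr1 was -0.0767, Ngp 1.05, Ptprc 0.11, S100a8 0.0478 and Slc13a3 0.11, and without WT KD 25 Ngp was 1.11, Ptprc 0.29, Slc13a3 0.23, Slc16a3 0.21 and Slc16a7 0.0165. Leaving out 1 library, Slc13a3 ranged between -0.217 (without WT KD 28) and 0.0718 (without WT KD 7). Leaving out 1 library besides WT KD 25, Slc13a3 ranged between -0.307 and 0.127, Ptprc between -1.14 and 0.0308 (without WT KD 12), and Slc16a3 between -0.349 and 0.140; Slc16a3 was 0.0221 with the forebrain level. The cause was not tested. No paired analysis was possible because library numbers are unique and the groups share none. Depth is unknown, so no counting interval is given.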

Other observations

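Gm28438, a pseudogene on chromosome 1, matched the mitochondrial gene mt-Nd3 in 342 of 342 aligned bases, and its values were high where those of mt-Nd3 were low. Gm28438 was listed at 0 in all 5 DKO KD libraries, against 7980, 7581, 12330 and 0 in WT KD 7, 12, 25 and 28. The gene mt-Nd3, a subunit of respiratory complex I, had 26820 to 34860 in DKO KD, against 14420, 15170, 17940 and 33110 in WT KD. The sum of mt-Nd3 and Gm28438 was 26820 to 34860 in DKO KD, against 22400, 22750, 30270 and 33110 in WT KD, so those 2 groups overlapped.

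Myelin genes of oligodendrocytes had a median difference of 0.16 with all libraries, with 17 of 20 above 0 (52.1% of all genes). Without WT KD 25 it was 0.24, with 20 of 20 above 0 (51.5% of all genes). None of the 20 passed in limma, and 0 had an unadjusted p under 0.05 in either setting. Their level was 11.23 to 11.93 in DKO KD, against 11.24, 10.98, 11.63 and 11.87 in WT KD 7, 12, 25 and 28, and the groups overlapped.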
